A study of Homo sapiens with 39 samples.

Results

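Aminoacyl-tRNA synthetases were followed in 2 human B-lineage cell lines that differ in how they respond to ch128.1Av, which fuses avidin to an antibody against transferrin receptor 1, the main route of cellular iron uptake. Members were taken by gene symbol, older names included: symbols ending in 1, with FARSA and FARSB, were counted as cytosolic and symbols ending in 2 as mitochondrial. Of 35 members, 33 had a probe and all 33 passed the detection filter, among 11538 genes tested. The tested members were 19 of 19 cytosolic and 14 of 16 mitochondrial enzymes. WARS2 and YARS2 were not analysed here, since no probe carried either symbol. IARS1 had 2 probes, of which 1 passed the filter, and each other tested member had 1 probe. All were detected on all 39 arrays, except FARSB on 36 and VARS1 on 38.

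IM-9 is a B-lymphoblastoid line carrying Epstein-Barr virus, and the labels call it sensitive to ch128.1Av. U266 is a multiple myeloma line, and the labels call it tolerant. Each line was sampled untreated at 0 h and after 1, 3, 9 and 24 h with buffer or with ch128.1Av at 10 nM, which gives 18 groups. Total RNA was hybridised to Illumina arrays, 2 a group. Another array, giving n = 3, exists for treated IM-9 at 3 h, treated U266 at 1 h and treated U266 at 9 h. Each condition is therefore represented by 1 line of each kind, so a difference between the lines cannot be told apart from any other feature that separates these cell lines.

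Synthetases join amino acids to their matching transfer RNAs, the step that fixes the meaning of the genetic code. In human cells the cytosolic and the mitochondrial enzyme for an amino acid are mostly encoded by separate nuclear genes, and the mitochondrial enzyme serves translation of the respiratory chain subunits encoded in mitochondrial DNA. KARS1 and GARS1 are exceptions, since each encodes the enzyme of both compartments, and EPRS1 joins the glutamyl and the prolyl enzyme in a single protein. Mitochondrial glutamine charging runs through EARS2 and an amidotransferase. Several cytosolic synthetase genes are known targets of ATF4, the transcription factor of the amino acid and integrated stress responses, which binds C/EBP-ATF response elements (CARE), and WARS1 is known to be induced by interferon gamma.

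The promoters of both classes were read for the core of this element, because this family holds known ATF4 targets. RefSeq windows on GRCh38.p14, from 250 bases before to 50 bases after a gene start, were held for 30 members, 16 cytosolic and 14 mitochondrial, YARS2 and WARS2 included. The letters TGATGCAAN, searched on both strands, were found in 6 of 16 cytosolic and 0 of 14 mitochondrial genes, against 1.08% of 27305 genes. The windows of the 6 genes are printed 5′ to 3′ along the gene with the matched letters in capitals, which read on the opposite strand in all but NARS1.
MARS1: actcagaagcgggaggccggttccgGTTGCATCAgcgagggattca
NARS1: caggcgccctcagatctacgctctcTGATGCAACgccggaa
AARS1: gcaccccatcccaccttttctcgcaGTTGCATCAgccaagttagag
CARS1: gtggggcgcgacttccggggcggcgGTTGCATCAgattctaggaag
IARS1: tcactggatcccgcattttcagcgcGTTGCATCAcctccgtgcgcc
TARS1: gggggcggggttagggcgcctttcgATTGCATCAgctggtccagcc
The MARS1 window lies at chr12:57488038-57488083 on the plus strand and the TARS1 window at chr5:33440941-33440986 on the plus strand. Those of NARS1 (chr18:57621807-57621847), AARS1 (chr16:70289674-70289719), CARS1 (chr11:3057406-3057451) and IARS1 (chr9:92293691-92293736) lie on the minus strand. In MARS1, NARS1, CARS1 and IARS1 the match starts within 15 bases of the gene start, and in AARS1 it starts at position -188 from it. In TARS1 it starts at position 2 of a promoter entry that begins downstream of the start given in the RefSeq gene table.

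The looser form TGATGNAAN, which contains every match to the stricter one, added GARS1 among cytosolic genes and YARS2 among mitochondrial genes, 7 of 16 and 1 of 14, against 4.45% of all genes. The GARS1 window, at chr7:30594819-30594864 on the plus strand, is shown because GARS1 had the largest cytosolic difference between the untreated lines.
GARS1: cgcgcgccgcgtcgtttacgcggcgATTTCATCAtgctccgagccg
The related letters TGACGCAAN were found in 0 of 16 and 0 of 14 genes, against 0.648% of all genes. The palindrome CACGTG, the E-box bound by MYC and related factors, was found in 1 cytosolic gene, IARS1, and 3 mitochondrial genes, MARS2, CARS2 and EARS2, against 8.77% of all genes. MARS2, the mitochondrial gene that differed most between the lines, holds it at chr2:197705358-197705363, in the window chr2:197705333-197705375 on the plus strand.
MARS2: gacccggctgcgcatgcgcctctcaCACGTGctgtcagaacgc
These matches are letters in a window and describe no binding in these cells. HARS1 and HARS2 lie head to head on chromosome 5, and their promoter windows share 184 bases, chr5:140691321-140691504, read on opposite strands.

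An array had 8967 to 10067 detected probes and a median raw intensity between 137.9 and 223.3. The correlation between replicates, across genes, was 0.994 to 0.999. Brightness, here the 75th percentile of an array's raw intensity divided by its 5th, ran from 3.95 to 11.7 and differed between some compared groups, as given below. It is a ratio and not a measure of total signal. The defining markers bore out the labels: of 3 tested B cell markers, 3 were higher in IM-9, with CD79A at 3.43, and of 6 plasma cell markers 5 were higher in U266, with SDC1 at -3.98 (IM-9 minus U266, log2, 0 h). Levels below are log2 normalized intensities and changes are log2 differences with their standard error (SE). A gene is called at an adjusted p under 0.05 in limma, with Benjamini-Hochberg adjustment over all genes tested.

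In untreated IM-9 against U266, 13 of 19 cytosolic genes were called, 11 lower and 2 higher in IM-9, with a median change of -0.27. Of 14 mitochondrial genes 9 were called, 6 higher and 3 lower, with a median change of 0.06. The lines differed in most genes of any kind: 33.3% of all genes tested were called higher and 34% lower in IM-9, and the median over all genes was -0.000474. The 22 called members of 33 are therefore close to the background share, as are the 6 higher of 14 mitochondrial genes, while the 11 lower of 19 cytosolic genes lie above it. The difference between the classes was not tested.

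Among cytosolic enzymes, GARS1, the glycyl enzyme, had the largest difference. It stood at 13.64 and 13.68 on the IM-9 arrays and at 15.19 and 14.74 on the U266 arrays. IM-9 was 2.47-fold lower, with a change of -1.30 (SE 0.106, n = 2 and 2, limma adjusted p = 7.7e-11). NARS1, the asparaginyl enzyme, was at 12.06 and 11.92 in IM-9 and at 13.00 and 12.96 in U266. Its change was -0.997 (SE 0.111, adjusted p = 2.08e-08 in limma). MARS1, the methionyl enzyme, was at 11.54 and 11.80 in IM-9 and at 12.53 and 12.79 in U266. It was also lower in IM-9 by about as much, at -0.995 (SE 0.0888, limma adjusted p = 4.41e-10). For each of these genes both IM-9 arrays lay below both U266 arrays.

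The other cytosolic genes lower in IM-9 were LARS1 at -0.60, AARS1 at -0.55, YARS1 at -0.48, SARS1 at -0.41, WARS1 at -0.37, IARS1 at -0.31, CARS1 at -0.27 and VARS1 at -0.26. AARS1 was at 13.96 and 13.98 in IM-9 and at 14.60 and 14.44 in U266. SARS1 was at 13.28 and 13.42 in IM-9 and at 13.79 and 13.75 in U266. KARS1, the lysyl enzyme, ran the other way, at 11.88 and 11.97 in IM-9 and 11.34 and 11.27 in U266. It was 1.54-fold higher in IM-9 (0.62, SE 0.0605, limma adjusted p = 2.26e-09). QARS1, the glutaminyl enzyme, was higher by 0.21. TARS1, FARSA, HARS1, RARS1, EPRS1 and FARSB were not called, with changes between -0.11 and 0.15.

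KARS1 and GARS1, which serve both compartments, were the highest and the lowest of the 19 changes, so the cytosolic median is the same without them. Both cytosolic genes higher in IM-9, KARS1 and QARS1, belong to the multisynthetase complex, the assembly that holds several cytosolic synthetases together. Of its 7 tested members here, 2 were higher and 3 lower in IM-9, with a median of -0.08. Of the 12 cytosolic genes outside it, 0 were higher and 8 lower, with a median of -0.32. The difference between these groups was not tested.

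Among mitochondrial enzymes MARS2, the methionyl enzyme, had the largest difference of any member. It stood at 10.67 and 10.78 in IM-9 and at 8.79 and 8.76 in U266. IM-9 was 3.87-fold higher (1.95, SE 0.0897, n = 2 and 2, limma adjusted p = 1.05e-15). AARS2, the alanyl enzyme, was at 10.08 and 10.21 in IM-9 and 9.23 and 9.17 in U266, a change of 0.94 (SE 0.0889). LARS2, the leucyl enzyme, was at 10.20 and 10.45 in IM-9 and 9.50 and 9.58 in U266, a change of 0.79 (SE 0.092). SARS2, the seryl enzyme, was at 11.81 and 11.70 in IM-9 and 11.09 and 11.03 in U266, a change of 0.70 (SE 0.065). In all 4 genes the IM-9 arrays lay above the U266 arrays.

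FARS2 at 0.59 and VARS2 at 0.47 were also higher in IM-9. EARS2, RARS2 and IARS2 were lower, at -0.65, -0.58 and -0.33. TARS2, CARS2, PARS2, HARS2 and NARS2 were not called, with changes between -0.13 and 0.07. The mitochondrial class was therefore not uniform, and its median lay near that of all genes while the highest member lay far from it.

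**Figure D1:**
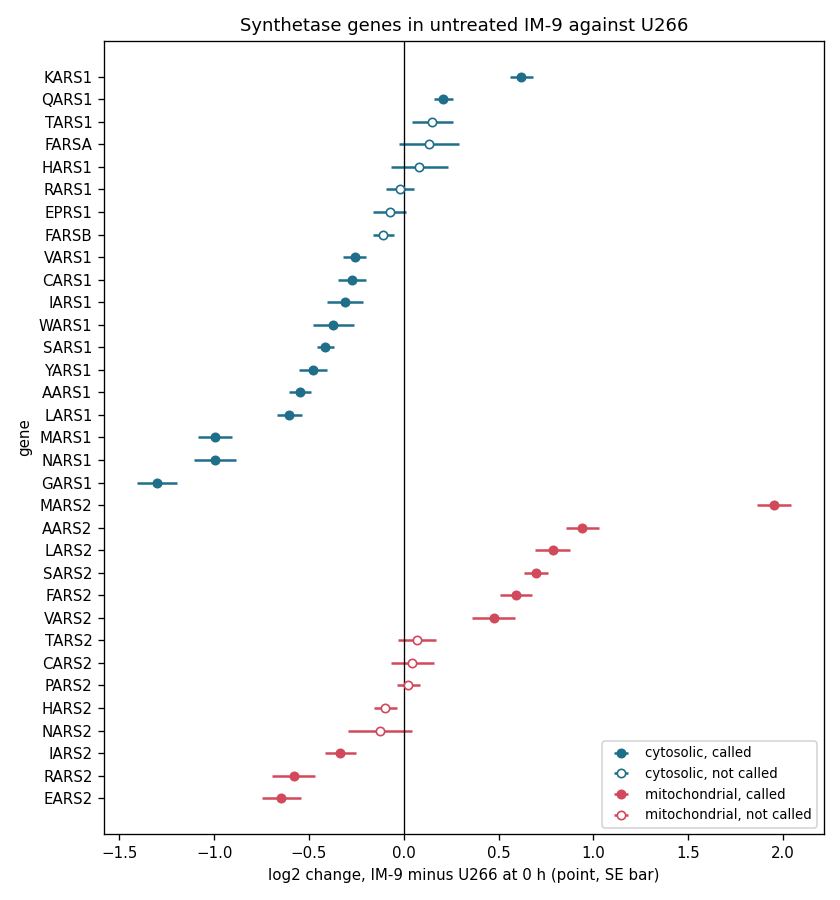
Log2 change of each synthetase gene in untreated IM-9 against U266 (x axis, IM-9 minus U266 at 0 h), cytosolic genes above and mitochondrial genes below, with bars for the SE and filled points for called genes. GARS1 lies lowest at -1.30 and MARS2 highest at 1.95.

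The calls rested on 2 arrays a group. Of the 22 calls, 18 held without each array in turn; CARS1 was lost without IM-9 replicate 2 (adjusted p = 0.0802), WARS1 (0.0797) and IARS2 (0.122) without IM-9 replicate 1, and IARS1 without IM-9 replicate 1 or U266 replicate 2 (highest 0.12). With arrays scaled to equal medians in place of quantile normalization, 12 of the 22 were called: AARS1, CARS1, GARS1, LARS1, MARS1, NARS1, KARS1, AARS2, EARS2, LARS2, MARS2 and RARS2. That setting gave 1 higher and 6 lower of 19 cytosolic genes and 3 higher and 2 lower of 14 mitochondrial genes. The medians were -0.32 and -0.06, where the median over all genes was -0.02. No share of all genes called is given for that setting, so these counts have no background beside them.

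For 11 amino acids both the cytosolic and the mitochondrial gene were tested. In untreated cells 6 of these pairs had both genes called, and in 5 of the 6 the cytosolic gene was lower and the mitochondrial gene higher in IM-9. The pairs were MARS1 and MARS2 (-0.995 and 1.95), AARS1 and AARS2 (-0.55 and 0.94), LARS1 and LARS2 (-0.60 and 0.79), SARS1 and SARS2 (-0.41 and 0.70) and VARS1 and VARS2 (-0.26 and 0.47). In the sixth pair, IARS1 and IARS2, both genes were lower in IM-9, at -0.31 and -0.33. Among pairs without both genes called, CARS1 and CARS2 ran as the 5 did (-0.27 and 0.04). NARS1 and NARS2 (-0.997 and -0.13) and RARS1 and RARS2 (-0.02 and -0.58) were both lower. TARS1 and TARS2 (0.15 and 0.07) were both higher, and HARS1 and HARS2 were at 0.08 and -0.10. The count of opposite pairs was not tested. With equal medians both genes stayed called in the methionine, alanine and leucine pairs. Levels of the 2 genes of a pair come from different probes and are not compared with each other.

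**Figure D2:**
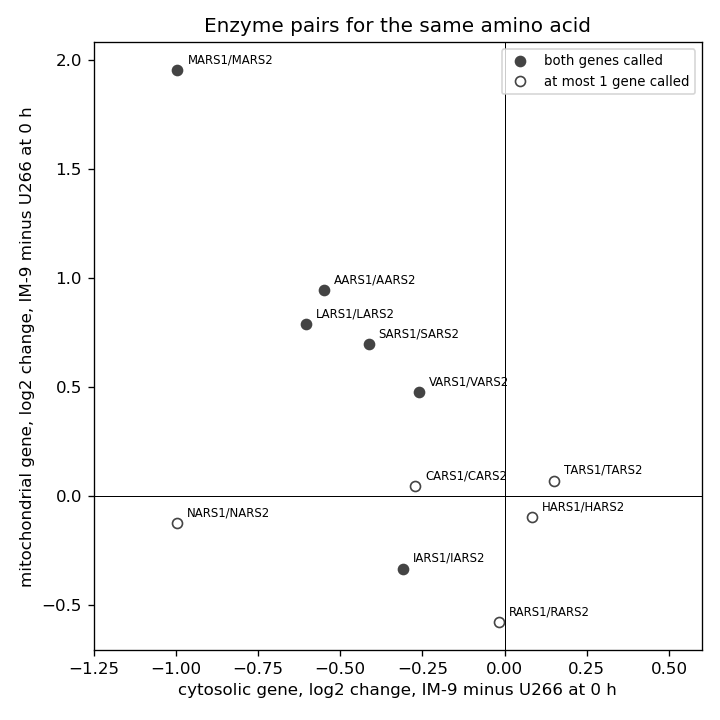
Each point is an amino acid, with the log2 change between untreated lines of its cytosolic gene on the x axis and of its mitochondrial gene on the y axis (IM-9 minus U266), filled where both genes were called. MARS1/MARS2 lies at -0.995 and 1.95, in the upper left with the other pairs in which the cytosolic gene was lower and the mitochondrial gene higher in IM-9.

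The same line differences were set beside each other in all 18 groups, as 9 matched conditions (0 h, and each hour with buffer or ch128.1Av). The cytosolic median of IM-9 minus U266 was below 0 in each, from -0.41 with ch128.1Av at 24 h to -0.23 with buffer at 1 h. In each condition 14 or 15 of 19 cytosolic genes were lower in IM-9, where 50% to 51.6% of all genes were lower. The mitochondrial median was above 0 in each, from 0.05 with ch128.1Av at 24 h to 0.31 with buffer at 1 h, and 8 to 11 of 14 genes were higher in IM-9. The median over all genes lay between -0.00860 and 2.44e-05. The 9 conditions share their lines, so they are no independent repeats of a difference between sensitive and tolerant cells.

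**Figure D3:**
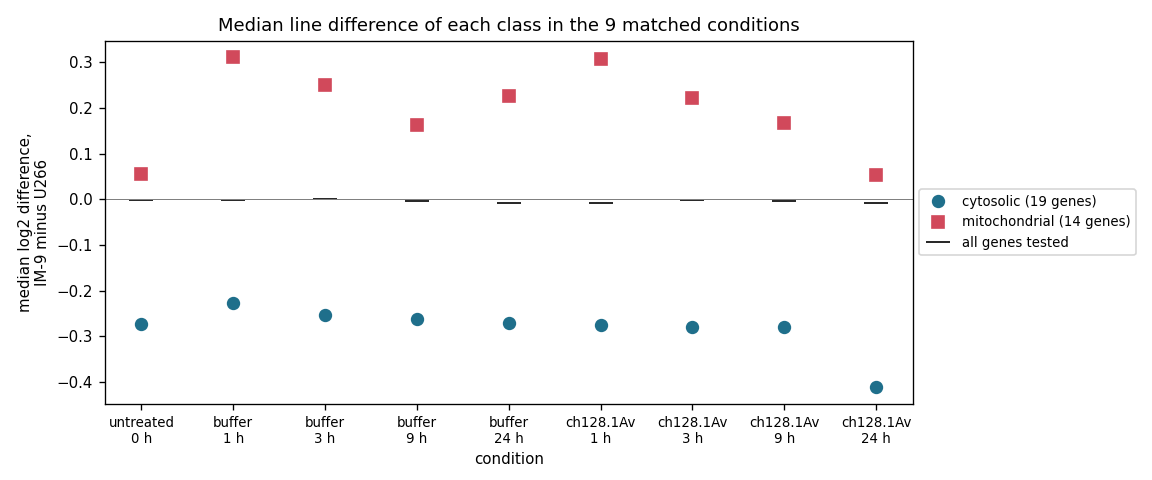
Median log2 difference between the lines (y axis, IM-9 minus U266) over the 19 cytosolic genes, the 14 mitochondrial genes and all genes tested, in each of the 9 matched conditions (x axis). Cytosolic medians lie between -0.41 and -0.23, mitochondrial medians between 0.05 and 0.31.

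Gene by gene, 11 of 19 cytosolic genes were lower and 2 higher in IM-9 in all 9 conditions, and 6 of 14 mitochondrial genes were higher and 2 lower. Over all genes tested 34.6% were lower and 33.3% higher in all 9. A comparison of the mean of the 9 IM-9 groups with the mean of the 9 U266 groups, added after the data had been seen, called 4 cytosolic genes higher and 14 lower (median -0.25) and 8 mitochondrial genes higher and 4 lower (median 0.20). In it 42.6% of all genes were called higher and 43.9% lower, so nearly every gene differed and the count of called members is near the background. With equal medians the cytosolic median of this comparison moved to -0.05, the mitochondrial one to 0.40 and that of all genes to 0.03.

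The separation of the lines was complete for some members, at a share over both classes together close to that of all genes. The split by class was not tested. All 19 IM-9 arrays lay below all 20 U266 arrays in 7 cytosolic genes (AARS1, CARS1, GARS1, LARS1, MARS1, NARS1, YARS1) and 1 mitochondrial gene (RARS2), where 22.2% of all genes did. All lay above in 2 cytosolic genes (KARS1, QARS1) and 5 mitochondrial genes (AARS2, FARS2, LARS2, MARS2, SARS2), where 21.2% of all genes did. MARS1 ran from 11.22 through a median of 11.58 to 11.91 in IM-9, and from 12.53 through 12.93 to 13.10 in U266. MARS2 ran from 10.15 through 10.79 to 10.996 in IM-9, and from 8.48 through 8.69 to 8.94 in U266.

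GARS1 ran from 13.47 through 13.71 to 13.82 in IM-9 and from 14.56 through 14.74 to 15.21 in U266. NARS1 ran from 11.52 through 12.06 to 12.34 in IM-9 and from 12.84 through 13.13 to 13.49 in U266. In both genes every IM-9 array lay below every U266 array. CARS1, the cysteinyl enzyme, was the least separated of the 7, with a highest IM-9 array at 8.51 and a lowest U266 array at 8.53. Its line difference ran from -1.12 to -0.27 over the 9 conditions, the smallest at 0 h.

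**Figure D4:**
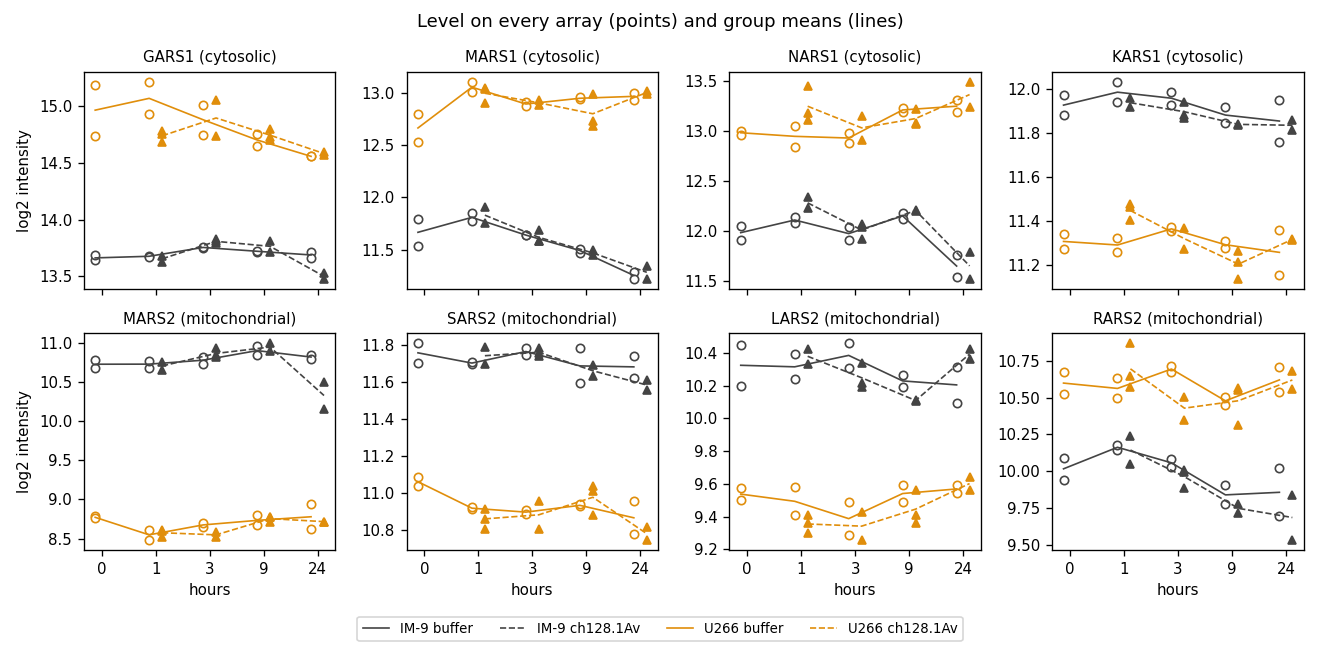
Log2 intensity of 8 synthetase genes (y axis, a separate scale for each gene) on every array by hour (x axis), with open circles for untreated or buffer arrays, filled triangles for ch128.1Av and lines through group means. The IM-9 points lie below all U266 points for GARS1, MARS1, NARS1 and RARS2 and above them for KARS1, MARS2, SARS2 and LARS2.

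In IM-9, ch128.1Av against buffer at 24 h called 7 of 33 members. WARS1 and SARS1 rose, RARS1, YARS1 and VARS1 fell among cytosolic genes, and EARS2 and MARS2 fell among mitochondrial genes. In that comparison 6.15% of all genes were called higher and 7.23% lower. The medians were -0.02 for the 19 cytosolic and -0.05 for the 14 mitochondrial genes, and -0.00166 over all genes.

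EARS2, the glutamyl enzyme of mitochondria, was at 10.35 and 10.30 with buffer and at 10.03 and 9.56 with ch128.1Av. It fell by 0.53 on the log2 scale (SE 0.102, n = 2 and 2, limma adjusted p = 0.00117). MARS2 was at 10.85 and 10.79 with buffer and at 10.50 and 10.15 with ch128.1Av, and fell 1.41-fold, by 0.49 on the log2 scale (SE 0.0897, limma adjusted p = 0.000674). In both genes the treated arrays lay below the buffer arrays, and treated replicate 2 was the lower. Without that array the changes were -0.30 for EARS2 (adjusted p = 0.095) and -0.31 for MARS2 (adjusted p = 0.0619).

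RARS1, the arginyl enzyme, was at 13.19 and 13.31 with buffer and at 12.92 and 12.87 with ch128.1Av, and fell by 0.36 (SE 0.0745, limma adjusted p = 0.00211). YARS1, the tyrosyl enzyme, was at 13.83 and 13.80 with buffer and 13.55 and 13.53 with ch128.1Av, and fell by 0.28 (limma adjusted p = 0.0125). VARS1, the valyl enzyme, was at 11.75 and 11.76 with buffer and 11.50 and 11.55 with ch128.1Av, and fell by 0.23 (limma adjusted p = 0.0119). In all 3 genes the treated arrays lay below the buffer arrays. Every other called member of this comparison was separated too, and no share of all genes is given for such separation.

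WARS1, the tryptophanyl enzyme, was at 11.94 and 11.65 with buffer and at 12.11 and 12.19 with ch128.1Av, and rose by 0.35 (SE 0.109, limma adjusted p = 0.0332). SARS1 was at 13.44 and 13.36 with buffer and 13.56 and 13.61 with ch128.1Av, and rose by 0.18 (SE 0.0433, limma adjusted p = 0.00628). Both treated arrays lay above both buffer arrays in both genes. AARS1 (-0.15), GARS1 (-0.19), MARS1 (0.03) and LARS2 (0.19) were not called. In AARS1, GARS1 and LARS2 the treated and buffer arrays did not overlap either, so such separation also occurred without a call. AARS1 was called with the array set as a block (adjusted p = 0.0429) and in a limma fit of IM-9 by itself (0.0257), and GARS1 in that fit (0.00615).

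Each of the 7 calls was lost without at least 1 array. The count of called members was 8 without buffer replicate 1, 2 without buffer replicate 2, 10 without treated replicate 1 and 1 without treated replicate 2. Beyond the values above, the loss came without buffer replicate 2 for RARS1 (adjusted p = 0.0608), WARS1 (0.452, with a change of 0.21), YARS1 (0.0714), VARS1 (0.091) and SARS1 (0.14). It came without treated replicate 2 for WARS1 (0.285), YARS1 (0.124), VARS1 (0.0625) and SARS1 (0.112), without treated replicate 1 for VARS1 (0.0522), and without buffer replicate 1 for YARS1 (0.0566). Array brightness moved with the treatment, at 9.24 and 9.29 on the buffer arrays and 6.71 and 3.97 on the treated arrays, and with it as a covariate 3 members were called, VARS1, EARS2 and MARS2. With equal medians 1 was called, MARS2 (adjusted p = 0.00939), and SARS1 turned to -0.02. WARS1 was then at 0.0137 (adjusted p = 0.98), while RARS1 (-0.61), VARS1 (-0.58), YARS1 (-0.47) and EARS2 (-0.96) had larger changes that did not pass. Scaling of that kind shifted the median of all genes by -0.15.

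At the earlier hours no member was called in IM-9. At 1 h the 33 changes lay between -0.12 and 0.17, at 3 h between -0.22 and 0.34 and at 9 h between -0.24 and 0.42, with 0, 3 and 3 members at an unadjusted p under 0.05. Of the 11538 genes tested, 236, 536 and 1005 had an unadjusted p under 0.05. By limma the shares of all genes called in either direction at these hours were 0%, 0.0173% and 0.0867%, so few genes of any kind passed.

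In U266 2 members were called, both at 1 h and both cytosolic, where 4.49% of all genes were called higher and 4.44% lower. HARS1, the histidyl enzyme, was at 12.09 and 11.82 with buffer and at 12.27, 12.51 and 12.45 with ch128.1Av, and rose by 0.46 (SE 0.138, limma adjusted p = 0.0399). GARS1 was at 14.93 and 15.21 with buffer and at 14.78, 14.68 and 14.75 with ch128.1Av, and fell by 0.33 (SE 0.0965, limma adjusted p = 0.0351). The treated and buffer arrays did not overlap in either gene. All 3 treated arrays and neither buffer array at 1 h belonged to 7 U266 arrays whose highest raw signal was over 60000, so hour-1 treatment and that array set cannot be told apart.

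Brightness also moved with this comparison, at 8.89 and 9.21 with buffer and 3.95 to 5.62 with ch128.1Av, and 0 members were called with it as a covariate, with the array set as a block or with equal medians, where GARS1 turned to 0.08. The HARS1 call was lost without buffer replicate 1 (adjusted p = 0.0697) or 2 (0.305) or treated replicate 2 (0.139) or 3 (0.0793), and the GARS1 call without buffer replicate 2 (-0.19, 0.382) or treated replicate 2 (0.118) or 3 (0.0544).

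At 3, 9 and 24 h no member was called in U266 by limma, with 2, 1 and 3 members at an unadjusted p under 0.05. Of the 11538 genes tested, 551, 414 and 817 had an unadjusted p under 0.05. The shares of all genes called in either direction were 0.00867%, 0.0433% and 0.0173%. At 24 h the changes lay between -0.19 and 0.22 for cytosolic genes and between -0.13 and 0.31 for mitochondrial genes. MARS2 was at 8.94 and 8.62 with buffer and 8.72 and 8.72 with ch128.1Av, and EARS2 at 10.56 and 10.63 with buffer and 10.66 and 10.55 with ch128.1Av. The groups overlapped in both genes.

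**Figure D5:**
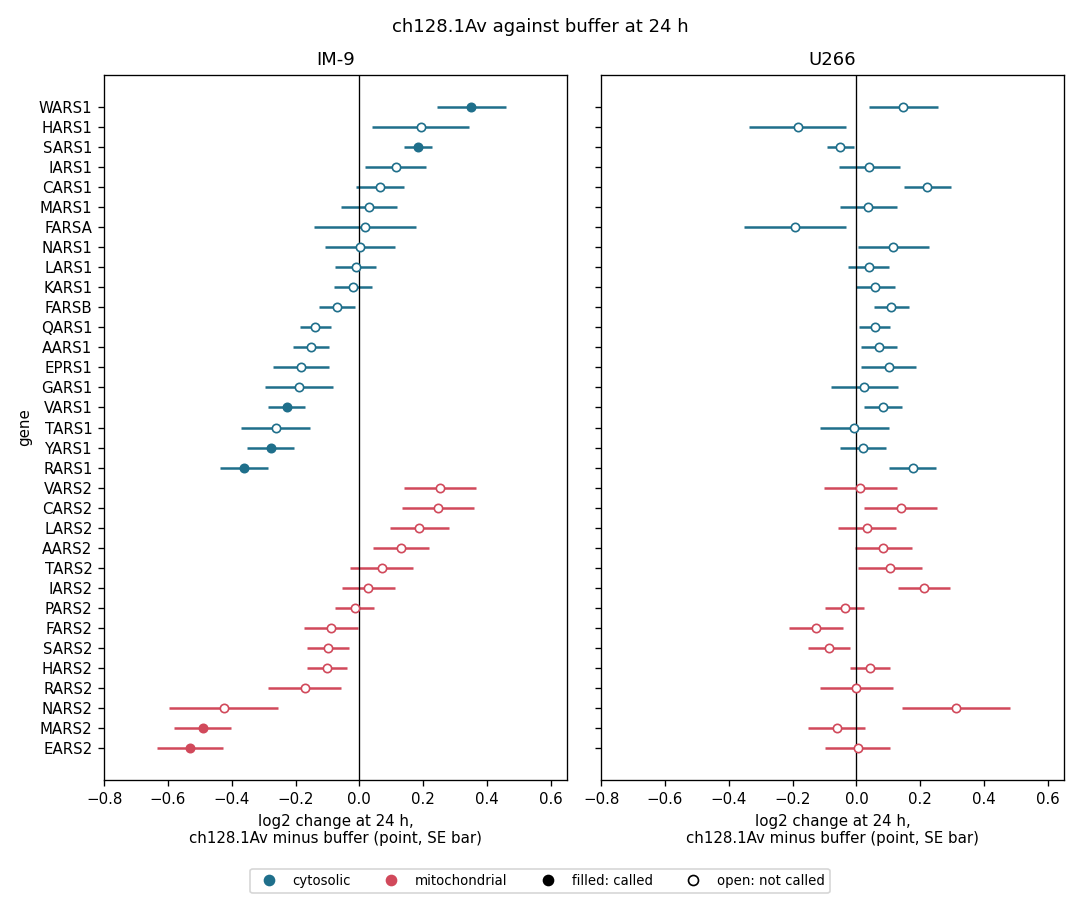
Log2 change with ch128.1Av against buffer at 24 h (x axis) of each synthetase gene in IM-9 (left) and U266 (right), with bars for the SE, filled points for called genes and 1 row a gene in both panels. In IM-9 WARS1 lies highest at 0.35 and EARS2 lowest at -0.53, and no gene was called in U266.

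Whether the response differed between the lines was tested as the IM-9 change minus the U266 change. At 24 h 4 members were called, where 2.38% of all genes were called positive and 2.49% negative. RARS1 fell in IM-9 (-0.36) and stood at 0.18 in U266, where its arrays were at 12.73 and 12.75 with buffer and 12.90 and 12.94 with ch128.1Av. The difference was -0.54 (SE 0.105, limma adjusted p = 0.00423), and it held without each array. EARS2 was at -0.53 in IM-9 and 0.00 in U266, a difference of -0.53 (SE 0.145, limma adjusted p = 0.0329). VARS1 was at -0.23 and 0.08, a difference of -0.31 (limma adjusted p = 0.032), and SARS1 at 0.18 and -0.05, a difference of 0.23 (limma adjusted p = 0.0281).

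For MARS2, called in IM-9, the difference from U266 was -0.43 and did not pass (limma adjusted p = 0.0512). WARS1 did not pass either, at 0.20 (limma adjusted p = 0.466). The median difference was -0.16 for the 19 cytosolic genes, -0.02 for the 14 mitochondrial genes and -0.00224 for all genes. Under equal medians none of the 4 was called. The count of called members was 1 without IM-9 buffer replicate 2, IM-9 treated replicate 2 or U266 treated replicate 2, 2 without U266 buffer replicate 1 or U266 treated replicate 1, and 7 without IM-9 treated replicate 1.

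At 1, 3 and 9 h no member differed between the lines in its response by limma, with 4, 0 and 0 members at an unadjusted p under 0.05. Of the 11538 genes tested, 1578, 334 and 446 had an unadjusted p under 0.05 at these hours. The shares of all genes called in either direction were 0.0867%, 0% and 0.0173%.

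Culture time alone also moved members, and these comparisons share the buffer arrays at 24 h with the treatment comparison. In IM-9 with buffer, 24 h against 0 h, 6 cytosolic genes fell and 2 mitochondrial genes rose, where 7.21% of all genes were called lower and 8.96% higher. HARS1 was at 12.17 and 12.39 at 0 h and 11.71 and 11.47 at 24 h, and fell by 0.69 (limma adjusted p = 0.00273). FARSA, the alpha subunit of the phenylalanyl enzyme, was at 11.15 and 11.19 at 0 h and 10.72 and 10.56 at 24 h, and fell by 0.53. MARS1 was at 11.54 and 11.80 at 0 h and 11.29 and 11.22 at 24 h, and fell by 0.41. WARS1 was at 12.04 and 12.26 at 0 h and fell by 0.35 to the 24 h buffer level given above, below the level with ch128.1Av.

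NARS1 (-0.33) and CARS1 (-0.23) also fell in IM-9. IARS2, the isoleucyl enzyme of mitochondria, was at 12.04 and 12.47 at 0 h and 12.67 and 12.69 at 24 h with buffer, and rose by 0.43 (SE 0.0824, limma adjusted p = 0.000871). EARS2 was at 9.99 and 9.99 at 0 h and rose by 0.33 to its 24 h buffer level, and with ch128.1Av at 24 h its arrays lay on both sides of the 0 h level. The IARS2 call held without each array and under each of 9 alternatives, but its size rested on the 0 h arrays: it was 0.21 (adjusted p = 0.0392) without 0 h replicate 1 and 0.64 without 0 h replicate 2. HARS1 was lost without 24 h replicate 2 (adjusted p = 0.0537), FARSA without 0 h replicate 1 (0.0738) or 2 (0.102) or 24 h replicate 2 (0.171), MARS1 without 0 h replicate 2 (0.0708), WARS1 without 0 h replicate 2 (0.263) or 24 h replicate 2 (0.36), and EARS2 without any 1 of the 4 arrays (highest 0.13). NARS1 was lost without 0 h replicate 1, 0 h replicate 2 or 24 h replicate 1 (highest 0.332) and under 5 of 9 alternatives, and CARS1 without 0 h replicate 1 or either 24 h array (highest 0.329). The count of called members was 5, 3, 5 and 3 without 0 h replicate 1, 0 h replicate 2, 24 h replicate 1 and 24 h replicate 2. Brightness was higher on the 24 h arrays (9.24 and 9.29) than on the untreated ones (6.17 and 4.52). Median raw intensity was lower at 24 h (180.9 and 173.4) than at 0 h (203.3 and 190). With equal medians 1 member was called.

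In U266 with buffer, 24 h against 0 h, 3 cytosolic genes rose, and 6 cytosolic and 2 mitochondrial genes fell, where 5.62% of all genes were called higher and 7.03% lower. RARS1 was at 13.25 and 13.21 at 0 h and 12.73 and 12.75 at 24 h, and fell by 0.49 (SE 0.0745, limma adjusted p = 0.000305). CARS1 was at 8.59 and 8.53 at 0 h and 9.02 and 9.02 at 24 h, and rose by 0.46 (SE 0.0746, limma adjusted p = 0.000475). FARSA was at 10.95 and 11.13 at 0 h and 11.74 and 11.33 at 24 h, and rose by 0.50. In these 3 genes, and in GARS1, NARS2 and SARS2 below, the 0 h and 24 h arrays did not overlap. No share of all genes is given for such separation.

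GARS1 was at 15.19 and 14.74 at 0 h and 14.56 and 14.56 at 24 h, and fell by 0.41. NARS2 was at 9.52 and 9.28 at 0 h and 8.72 and 8.93 at 24 h, and fell by 0.57, and SARS2 was at 11.09 and 11.03 at 0 h and 10.77 and 10.95 at 24 h, and fell by 0.20. MARS1 rose by 0.30, and AARS1 (-0.26), YARS1 (-0.23), QARS1 (-0.21) and SARS1 (-0.15) fell. The RARS1 and CARS1 calls held without each array. Those of FARSA (0.308 and 0.496), GARS1 (0.405 and 0.121), NARS2 (0.281 and 0.285) and SARS2 (0.297 and 0.549) were lost without 0 h replicate 1 and without 24 h replicate 1, and those of FARSA (0.0615) and SARS2 (0.0821) also without 0 h replicate 2. Without either of those arrays, 0 h replicate 1 and 24 h replicate 1, the calls of MARS1 (highest 0.426), AARS1 (0.148), YARS1 (0.496) and QARS1 (0.212) were lost too, and that of SARS1 was lost without any 1 of the 4 arrays (highest 0.232). The count of called members was 2 without 0 h replicate 1 or 24 h replicate 1, 8 without 0 h replicate 2 and 12 without 24 h replicate 2. Brightness was lower on the 24 h arrays (4.23 and 5.99) than on the untreated ones (11.7 and 6.55). With equal medians 0 members were called.

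Set against the 0 h level of its own line, neither class moved far as a whole. Over the 8 later groups of IM-9 the cytosolic median lay between -0.16 and 0.02 and the mitochondrial median between -0.05 and 0.07. In U266 these ranges were -0.10 to 0.03 and -0.11 to 0.06. The lowest cytosolic median, in IM-9 with ch128.1Av at 24 h, had 4 of 19 genes above their 0 h level.

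The partner genes of the amino acid response were read beside the synthetases. Of 34 listed ATF4 response genes 30 were tested, and in untreated IM-9 against U266 23 were lower and 4 higher, with a median of -0.53, where 34% of all genes were lower and 33.3% higher. DDIT3, a transcription factor of the stress response, was at -2.34, PHGDH, the first enzyme of serine synthesis, at -1.45, ASNS, the asparagine synthetase, at -0.996 and ATF4 at -0.43. With equal medians 17 were lower and 2 higher, with no share of all genes given for that setting. With ch128.1Av at 24 h in IM-9, 4 of 30 rose and 1 fell, where 6.15% of all genes were called higher and 7.23% lower. With equal medians 0 rose and 1 fell, and with brightness as a covariate 2 rose and 1 fell. ATF4 rose by 0.60 (limma adjusted p = 0.0193), ATF5 by 0.53 and SESN2 by 0.52, while CEBPG fell by 0.41. ASNS (0.12, limma adjusted p = 0.277) and DDIT3 (0.23, limma adjusted p = 0.0802) were not called. In U266 at 1 h 4 of 30 rose, where 4.49% of all genes were called higher, in the comparison that cannot be told apart from the array set, and 0 of 30 were called with that set as a block. At 24 h 0 of 30 were called in U266, with 4 at an unadjusted p under 0.05 in limma. Over all 11538 genes, 817 had an unadjusted p under 0.05 there.

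Of 15 tested genes for mitochondrial tRNA charging and translation factors, 4 were higher and 1 lower in untreated IM-9, with a median of 0.03. Over all genes 33.3% were called higher and 34% lower, so calls were fewer in this list than the background share. MRRF, the mitochondrial ribosome recycling factor, was at 1.40 and MTIF3, an initiation factor, at 0.88, while GTPBP3, which modifies mitochondrial tRNAs, was at -0.90. In IM-9 at 24 h with ch128.1Av 1 of 15 was called, where 6.15% of all genes were called higher and 7.23% lower. TRNT1, which adds the CCA end of tRNAs in both compartments, fell by 0.65 (limma adjusted p = 0.011). Its call was lost with brightness as a covariate. Of 4 tested cytosolic elongation factors, EEF1D was higher (1.48) and EEF2 lower (-0.15) in untreated IM-9, against the same shares of 33.3% and 34%. In IM-9 at 24 h with ch128.1Av 0 were called, with 1 at an unadjusted p under 0.05 in limma. Over all 11538 genes, 3059 had an unadjusted p under 0.05 there.

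Interferon-induced genes were read beside WARS1. In IM-9 at 24 h with ch128.1Av 3 of 7 rose, against 6.15% of all genes: IFI35 by 0.51, OAS1 by 0.51 and IRF1 by 0.44. With equal medians 0 of the 7 were called, and with brightness as a covariate 1, IFI35. In U266 at 24 h 0 of 7 were called, with 1 at an unadjusted p under 0.05 in limma, and their median was -0.21. Over all 11538 genes, 817 had an unadjusted p under 0.05 there. Plasma cell markers moved in the same IM-9 comparison, 4 of 6 rising, with PRDM1 at 0.80 and IRF4 at 0.59, and 0 of 6 with equal medians or 3 with brightness as a covariate. Of 3 tested B cell markers 1 rose, FCER2 at 0.28, and of 3 tested markers of other cells 1 fell, NKG7 at -0.16. Their part in the synthetase values was not tested.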

How the data were processed

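Total RNA of IM-9 and U266 was measured on 39 arrays in 18 groups. The deposited scanner table holds linear probe intensity for 20589 probes, not background-corrected or normalized by the authors, per the file headers and the values, and BeadStudio is named in the submitters' processing notes with no version. Its deposited detection score is a fraction from 0 to 1, and the detection p was taken as 1 minus it. A further deposited table of log2 values, quantile-normalized by the authors as found from the values, served as an alternative. Another 78 columns that map to no sample described here were left aside.

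In R 4.3.3, neqc of limma 3.58.1 (offset 16) corrected and quantile-normalized the intensities. The 12080 probes detected (p under 0.01) on 2 or more arrays were retained, and a gene with several was represented by the one with the highest mean. Of the 20589 probes 18332 had 1 symbol and 2257 none, and of the 11538 genes tested 10399 carried a symbol. A mean for each group was fitted with lmFit and eBayes (21 residual degrees of freedom, two-sided), with Benjamini-Hochberg adjustment over all genes within each of 15 comparisons and 1 added one, with calls made at an adjusted p under 0.05. Whether replicate arrays came from separate cultures is not given in the labels, so p values measure the spread between arrays, which may be technical, and the number of arrays limits the precision. Replicate numbers did not pair the arrays.

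The members and lists were chosen with earlier results of these data known. Values on every array are given for up to 4 called members of each class with the largest change in each comparison, and WARS1, AARS1, GARS1, MARS1, SARS1, LARS2, WARS2 (without a probe), ASNS, DDIT3 and ATF4 were always followed. Of the other lists up to 4 called genes with the smallest p were eligible in each comparison. In the synthetase complex scaffold list no gene was tested. Genes of a list without a tested probe were left out of its count. The fit was checked on simulated data. The alternatives for the interferon, mitochondrial factor and plasma cell lists were added after seeing the data. Alternatives were equal medians, the authors' table, no detection filter, mean of probes, a fit of each line by itself, the replicate block, brightness, array set, an intensity trend and leaving out each array.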

Additional observations from a re-analysis of the deposited data

Results flagged for a closer look

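In 4 members the response to ch128.1Av at 24 h differed between the lines by the test of the difference itself, IM-9 change minus U266 change, in limma. RARS1 differed by -0.537 (-0.36 in IM-9 and 0.18 in U266), EARS2 by -0.5344 (-0.53 and 0.00), VARS1 by -0.3111 (-0.23 and 0.08) and SARS1 by 0.2329 (0.18 and -0.05). Over all genes tested 2.38% were called positive and 2.49% negative in this comparison. RARS1 kept its call without each array in turn. With equal medians none of the 4 was called, RARS1 at a limma adjusted p of 0.473. The calls of SARS1, VARS1 and EARS2 were lost without 5, 6 and 6 of the 8 arrays of the comparison, with highest adjusted p of 0.179, 0.118 and 0.296. In IM-9 the array brightness differed between the treated and buffer groups, and with it as a covariate RARS1 (adjusted p = 0.0369) and VARS1 (0.0398) were called and SARS1 (0.159) and EARS2 (0.236) were not. Its part in these values was not tested further.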

How the results depend on the processing

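Shares of all genes called are given only for the quantile-normalized fit without covariates. Calls lost under an alternative therefore cannot be set against those lost among all genes. Equal-median scaling shifted the median of all genes by over 0.1 in 7 comparisons. It lowered the called members at 24 h in IM-9 from 7 to 1, at 1 h in U266 from 2 to 0, in the 24 h difference between lines from 4 to 0, between untreated lines from 22 to 12, and over 24 h with buffer from 8 to 1 in IM-9 and from 11 to 0 in U266. It turned MARS1 (-0.34), SARS1 (-0.019) and LARS2 (-0.24) in IM-9 at 24 h, GARS1 in U266 at 1 h (0.0782), and AARS1 (-0.0436), GARS1 (-0.0669), MARS1 (-0.080) and LARS2 (-0.094) in U266 at 24 h. With brightness as a covariate the counts were 3 at 24 h in IM-9, 0 at 1 h in U266, 2 for the 24 h difference between lines, and 5 in IM-9 and 2 in U266 over 24 h with buffer, and MARS1 in IM-9 at 24 h turned to -0.16. At 1 h in U266 the count was 1 with no detection filter, 4 with the replicate block, 0 with the array set as a block and 1 in a fit of U266 by itself, a member other than HARS1 and GARS1, which were both lost there. The 24 h difference between lines had 1 call in the authors' table, and 2 with the replicate block or with an intensity trend. U266 over 24 h with buffer had 7 calls with the replicate block and 4 in a fit of U266 by itself. Replicate numbers did not pair the arrays (correlations of deviations -0.698 to 0.293).

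The class difference (cytosolic minus mitochondrial median change) was 0.0322 at 24 h in IM-9, 0.0139 at 1 h in U266, -0.13 for the difference between lines at 24 h, -0.33 for untreated lines, 0.0237 in IM-9 and -0.13 in U266 over 24 h with buffer, and -0.45 over the 9 matched conditions. With equal medians it was 0.12 at 1 h in U266, -0.20, -0.15 and 0.0298 for the difference between lines at 1, 3 and 24 h, -0.26 for untreated lines, and -0.12 in IM-9 and -0.0342 in U266 over 24 h with buffer. With brightness it was -0.0717 at 24 h in IM-9, -0.0638 for the difference between lines at 24 h, -0.41 for untreated lines, -0.15 in IM-9 with buffer and -0.50 over the 9 matched conditions. The array set block gave -0.0212 and 0.000524 for the difference between lines at 3 and 9 h, the authors' table -0.0895 at 24 h, and the replicate block -0.39 for untreated lines.

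Without 1 array at a time, the called members ran from 1 to 10 at 24 h in IM-9, 1 to 2 at 1 h and 0 to 1 at 24 h in U266, 1 to 7 for the 24 h difference between lines, 3 to 5 in IM-9 and 2 to 12 in U266 with buffer. The class difference ran from -0.0941 to 0.000359 at 24 h in IM-9, turning sign without 3 of the 4 arrays, in U266 from -0.0353 to 0.0945 at 1 h, 0.0215 to 0.11 at 3 h and -0.0352 to 0.00877 at 9 h, for the difference between lines from -0.0736 to 0.0503, -0.11 to -0.015, -0.0163 to 0.091 and -0.20 to -0.056 at 1, 3, 9 and 24 h, from -0.46 to -0.28 for untreated lines, and from -0.0466 to 0.0159 in IM-9 and -0.16 to -0.0876 in U266 with buffer. MARS1 in IM-9 at 24 h ran from -0.0347 to 0.0944, and in U266 at 24 h WARS1 ran from -0.00329 to 0.30 and LARS2 from -0.00523 to 0.071. The cause of these changes was not tested.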
